A study of Mus musculus with 6 samples.

Results

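The 10 genes described here encode the surface molecules through which a macrophage co-stimulates or restrains T cells, or is itself restrained. They are the ligand genes Cd274, Pdcd1lg2, Cd80, Cd86, Icosl and Vsir, the receptor genes Cd40, Cd200r1 and Sirpa, and Cd47, the gene of the ligand of SIRPA. They were chosen by gene name from the 57010 genes of the count table, and each name matched 1 gene. All 10 passed the filter on low counts, which left 13303 genes to test. The cells were RAW 264.7, an established mouse macrophage line, stimulated with lipopolysaccharide (LPS), a bacterial cell wall component, and then given extracellular vesicles (EVs), small membrane particles released here by tendon stem cells. The stem cells had been held in normoxia for 3 samples (normoxic-EV) and preconditioned in hypoxia for the other 3 (hypoxic-EV), and all 6 samples had received LPS and vesicles. The comparison asks how the oxygen history of the vesicle donors changes the macrophage transcriptome, and cells without vesicles were not analysed here. Vesicle dose, times and the stem cells' species were not given in the sources used here. Nothing in the labels tells whether replicates were separate cultures, and p-values therefore rest on a spread that may be technical.

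T cells need a co-stimulatory signal beside the antigen receptor signal. CD80 and CD86 give it through CD28 and also bind the inhibitory receptor CTLA-4, ICOSL gives it through ICOS, and CD40 on the macrophage receives CD40L from the T cell and raises its stimulatory capacity. PD-L1 (Cd274) and PD-L2 (Pdcd1lg2) engage the inhibitory receptor PD-1, and VISTA (Vsir) is a further inhibitory molecule of the B7 family. SIRPA binds CD47 on other cells as a signal against phagocytosis, and CD200R1 restrains myeloid cells that meet CD200. In macrophages LPS is known to raise several of these genes, among them Cd40 and Cd274.

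Library totals ran from 16.8 to 23.4 M counts. Of 10 macrophage marker genes, 9 passed the count filter, and their summed level was 10510 to 10960 CPM (counts per M counts of the library) in normoxic-EV and 8593 to 8828 in hypoxic-EV libraries. Lyz2, encoding lysozyme, made up most of that sum and went from 7946 ± 208 to 6091 ± 176 CPM (TMM-scaled, SD, n = 3). Of the 9, 6 were lower and 2 higher in hypoxic-EV, while 21.5% of all genes tested were lower and 22.7% higher. The called markers included Adgre1, encoding F4/80, at a log2 fold change of -0.80 and Csf1r, the M-CSF receptor gene, at 1.02 (174 ± 6.93 to 352 ± 13.4 CPM). Mertk, the marker below the filter, had at most 3 counts in a library. Most markers of other cells were near 0: 5 of 6 B cell markers, 5 of 7 dendritic cell markers, 7 of 10 T cell markers and 10 of 10 tendon and stromal markers had at most 10 counts in each library. The others were the T cell markers Lck, Pdcd1 and Cd28, the dendritic cell markers Zbtb46 and Xcr1, and the B cell marker Cd79a. Cd79a had 3, 8 and 6 counts in normoxic-EV and 14, 15 and 18 in hypoxic-EV. Cd3e and Cd8a had 0 counts in each library, which allows at most 0.179 CPM in a single library and covers counting error only. The summed T cell markers, of which Lck had the highest level, ran from 28.1 to 29.5 CPM in normoxic-EV and from 23.4 to 27.1 in hypoxic-EV.

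Promoter sequences are shown for the neighbouring genes of the PD-1 ligands and for a called gene of each direction. RefSeq promoter windows (build GRCm38.p6) were matched for 6 of the 10 genes by symbol. Shown are the 250 bases before the annotated start for the neighbouring PD-1 ligand genes Cd274 and Pdcd1lg2, for Cd47, which was lower in hypoxic-EV, and for Vsir, which was higher. Capitals mark matches to the NF-kB consensus, to the interferon-gamma activated site TTCNNNGAA, to the interferon regulatory factor repeat (GAAA, any 2 bases, GAAA), to the AP-1 site TGANTCA or to the hypoxia response core ACGTG, each searched on both strands.
Cd274, chr19:29367188-29367437, plus strand: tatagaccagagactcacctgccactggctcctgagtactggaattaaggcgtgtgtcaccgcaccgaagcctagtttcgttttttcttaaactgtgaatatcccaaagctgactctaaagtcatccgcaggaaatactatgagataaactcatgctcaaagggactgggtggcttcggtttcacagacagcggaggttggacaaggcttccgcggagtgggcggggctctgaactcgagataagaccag
Pdcd1lg2, chr19:29410669-29410918, plus strand: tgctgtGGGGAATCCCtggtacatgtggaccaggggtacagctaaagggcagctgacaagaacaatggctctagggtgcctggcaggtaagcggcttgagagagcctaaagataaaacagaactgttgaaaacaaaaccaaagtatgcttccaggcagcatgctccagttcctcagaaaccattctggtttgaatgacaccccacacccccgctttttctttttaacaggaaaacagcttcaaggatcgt
Cd47, chr16:49855404-49855653, plus strand: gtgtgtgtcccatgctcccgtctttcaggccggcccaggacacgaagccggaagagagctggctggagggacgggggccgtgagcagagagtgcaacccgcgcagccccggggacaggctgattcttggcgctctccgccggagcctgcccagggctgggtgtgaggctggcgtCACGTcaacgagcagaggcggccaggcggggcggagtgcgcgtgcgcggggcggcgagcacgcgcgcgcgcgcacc
Vsir, chr10:60346601-60346850, plus strand: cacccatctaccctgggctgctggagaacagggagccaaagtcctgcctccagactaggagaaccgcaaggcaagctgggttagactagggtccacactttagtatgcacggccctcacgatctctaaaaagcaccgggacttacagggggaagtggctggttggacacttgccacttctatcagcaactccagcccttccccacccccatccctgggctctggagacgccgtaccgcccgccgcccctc
The windows of Cd274 and Vsir held none of these patterns. That of Pdcd1lg2 held 1 NF-kB match, which reads as a match on either strand, and that of Cd47 held 1 hypoxia response core. Among the windows not shown, Icosl had an NF-kB match and Cd80, also called lower, an AP-1 match. A 2nd window of Cd47, overlapping the one shown, held the same hypoxia response core. Of 32536 distinct windows of this length in the table, 7.28% held the NF-kB consensus, 7.04% the interferon-gamma activated site, 2.98% the interferon regulatory factor repeat, 6.73% the AP-1 site and 16.7% the hypoxia response core. The AP-1 and interferon-gamma activated patterns read alike on both strands, and no match shown overlapped a match to another pattern. A match is a description of letters and not a site of binding.

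In macrophages given hypoxic-EV, 6 of the 10 genes were lower than in those given normoxic-EV (Cd274, Cd40, Sirpa, Cd86, Cd47 and Cd80), 1 was higher (Vsir), and 3 were not called (Pdcd1lg2, Icosl and Cd200r1). A gene was called at an adjusted p under 0.05 by edgeR's quasi-likelihood test, adjusted by Benjamini-Hochberg over all genes tested. Under that rule 44.2% of all genes tested were called, 21.5% lower and 22.7% higher. The shares among the 10 genes were 70% called, 60% lower and 10% higher. Their median log2 fold change was -0.54, and that of all genes tested was -0.001. The groups did not overlap in 7 of the 10 genes, against 52.8% of all genes tested. The 10 genes were chosen with earlier results of these data known, which limits these comparisons. These bulk libraries cannot tell fewer cells expressing a gene from less RNA per cell.

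**Figure D1:**
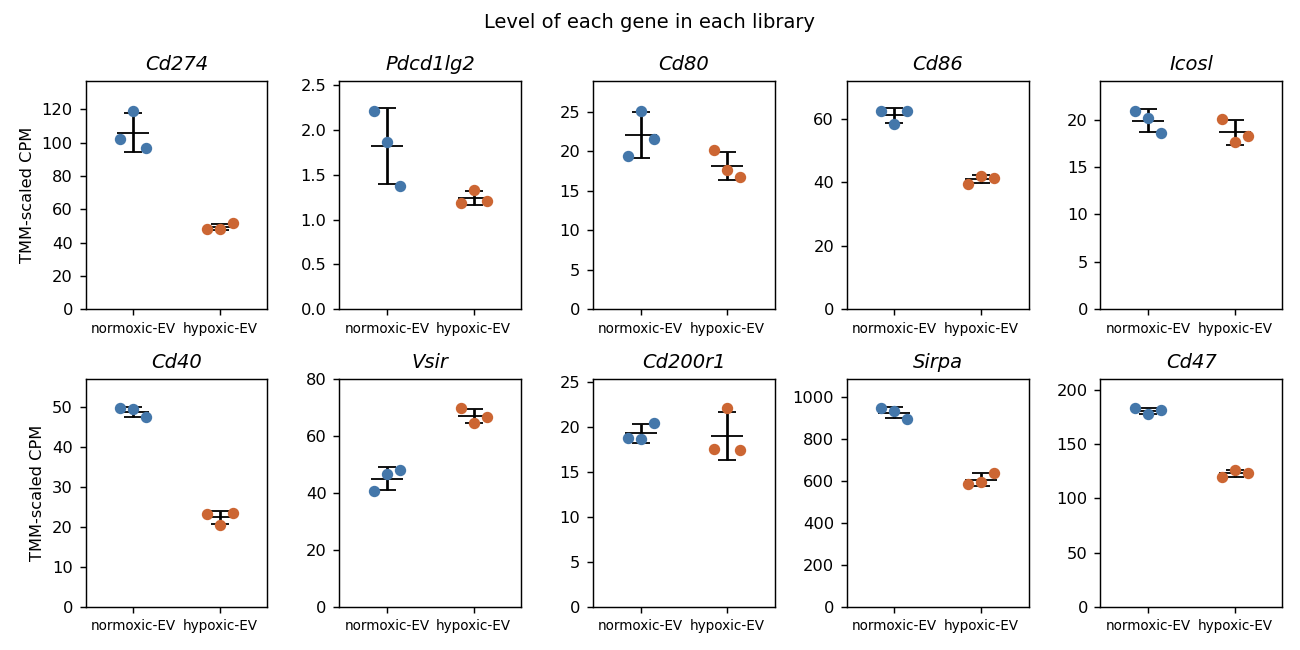
TMM-scaled CPM (vertical axes, each starting at 0) of the 10 genes in the 3 normoxic-EV libraries (blue) and the 3 hypoxic-EV libraries (orange), with the mean as a horizontal line and the SD as a bar. All hypoxic-EV points lie below all normoxic-EV points for Cd274, Pdcd1lg2, Cd86, Cd40, Sirpa and Cd47 and above them for Vsir, while the groups overlap for Cd80, Icosl and Cd200r1.

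The PD-1 ligand gene Cd274 (ENSMUSG00000016496, GRCm39 chromosome 19, 29344855 to 29365495) stood at 102, 119 and 96.6 CPM in normoxic-EV replicates 1 to 3 and at 48.3, 47.9 and 51.6 CPM in hypoxic-EV replicates 1 to 3. The groups lay far apart, and the spread was wider in normoxic-EV. The level fell from 106 ± 11.7 to 49.3 ± 1.99 CPM (SD, n = 3), a 2.14-fold lower level (edgeR log2 fold change -1.10, SE 0.0672, adjusted p = 2.95e-11). Only 1.83% of all genes tested had a lower log2 fold change. In the authors' deposited table its log2 fold change was -1.10 with an adjusted p of 2.54e-44.

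Pdcd1lg2, the gene of the other PD-1 ligand, starts 22823 bases past the end of Cd274 on the same strand (ENSMUSG00000016498, chromosome 19, 29388319 to 29448561). It was the least abundant of the 10 genes, with 20 to 37 counts in a library. Its levels were 2.21, 1.87 and 1.38 CPM in normoxic-EV and 1.18, 1.33 and 1.20 CPM in hypoxic-EV. All hypoxic-EV values were lower, but normoxic-EV replicate 3 lay close to them. Its log2 fold change was -0.53 (95% interval -1.05 to -0.01, edgeR adjusted p = 0.0928), so it was not called. Without normoxic-EV replicate 3 it was called lower (log2 fold change -0.71, edgeR adjusted p = 0.0416). The long noncoding RNA gene A930007I19Rik overlaps it on the other strand with 308 counts over the 6 libraries against 174 for Pdcd1lg2, so without a stated strand setting its reads cannot be assigned with certainty.

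The genes beside Cd274 on the other strand also had lower values. Plgrkt, encoding a plasminogen receptor, begins 64 bases from the start of Cd274 and went from 49.7 ± 3.43 to 36.5 ± 2.31 CPM (SD, n = 3; edgeR log2 fold change -0.45, adjusted p = 1.84e-05). The long noncoding RNA gene Gm36043, which overlaps Cd274, had a value of -1.03 on the same scale (adjusted p = 0.00429 by edgeR). Its call ended without normoxic-EV replicate 2 (edgeR adjusted p = 0.0562). Its total count was 2.21% of that of Cd274, and its reads cannot be separated from those of Cd274 with certainty.

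Both genes of the CD28 ligands were lower, at log2 fold changes of -0.58 for Cd86 and -0.28 for Cd80. Cd86 (ENSMUSG00000022901, chromosome 16, 36424231 to 36486443) had levels of 62.6, 58.5 and 62.4 CPM in normoxic-EV and 39.5, 42.0 and 41.4 CPM in hypoxic-EV. The groups did not overlap, and libraries of a group lay close together. The level was 1.49-fold lower (61.2 ± 2.33 to 41.0 ± 1.27 CPM, SD, n = 3, edgeR adjusted p = 6.7e-08).

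Cd80 (ENSMUSG00000075122, chromosome 16, 38275923 to 38316697) had 19.3, 25.1 and 21.6 CPM in normoxic-EV and 20.1, 17.6 and 16.7 CPM in hypoxic-EV. The groups overlapped, because normoxic-EV replicate 1 lay below hypoxic-EV replicate 1. Its fall had a 95% interval of -0.48 to -0.08 on the log2 scale (SE 0.096, edgeR adjusted p = 0.0203). The call ended without normoxic-EV replicate 2 (log2 fold change -0.19, adjusted p = 0.154), without hypoxic-EV replicate 3 (-0.22, adjusted p = 0.107) and with limma on log2 FPKM (adjusted p = 0.0937). With DESeq2 it was barely kept, at an adjusted p that rounds to 0.05.

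Icosl, the gene of the ICOS ligand (ENSMUSG00000000732, chromosome 10, 77905136 to 77919747), had 20.9, 20.2 and 18.6 CPM in normoxic-EV and 20.1, 17.6 and 18.3 CPM in hypoxic-EV. The groups overlapped. Its log2 fold change was -0.09, with a 95% interval of -0.27 to 0.08 (edgeR adjusted p = 0.402), and an unchanged level is not shown by that p.

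Cd40, the receptor gene for the T cell signal CD40L (ENSMUSG00000017652, chromosome 2, 164897547 to 164914868), had 49.7, 49.5 and 47.5 CPM in normoxic-EV and 23.3, 20.5 and 23.5 CPM in hypoxic-EV. Every hypoxic-EV library was far below every normoxic-EV library. The level fell from 48.9 ± 1.25 to 22.4 ± 1.64 CPM (SD, n = 3), 2.18-fold lower, with an edgeR log2 fold change of -1.12 (SE 0.0691, adjusted p = 3.39e-11), the lowest log2 fold change of the 10 genes. The authors' deposited table gave -1.12 with an adjusted p of 7e-37. Cd40 and Cd274 were the genes among the 10 that this table of 462 genes held, and its smallest absolute log2 fold change was 1.001. The other called genes of the 10 had smaller changes.

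Vsir, the VISTA gene (ENSMUSG00000020101, chromosome 10, 60182630 to 60208463), was the called gene that moved the other way. It had 40.6, 46.5 and 48.1 CPM in normoxic-EV and 69.8, 64.7 and 66.9 CPM in hypoxic-EV, and the groups did not overlap. The level rose from 45.1 ± 3.96 to 67.1 ± 2.52 CPM (SD, n = 3), 1.48-fold higher (edgeR log2 fold change 0.57, SE 0.0639, adjusted p = 3.06e-07). Of all genes tested, 93.2% had a lower log2 fold change. Vsir lies across from the cadherin gene Cdh23 on the other strand, which had 1.02% of the total count of Vsir.

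**Figure D2:**
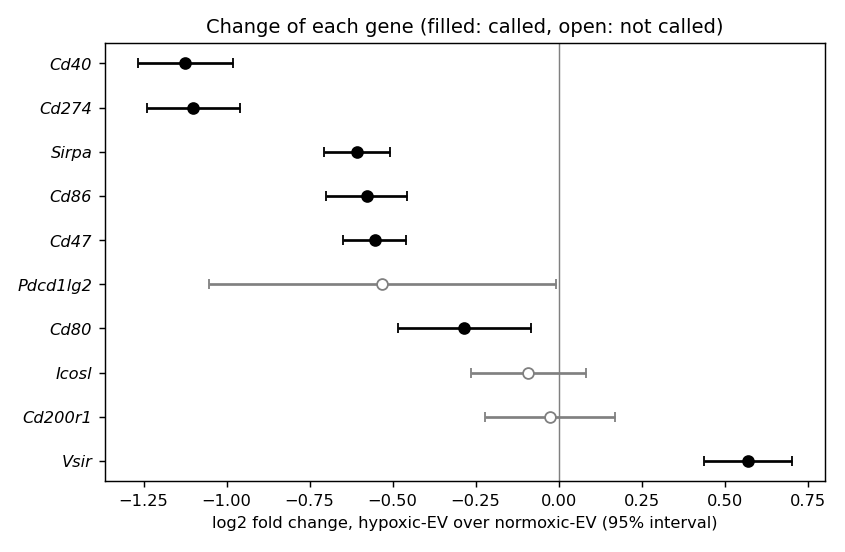
Log2 fold change of each of the 10 genes, hypoxic-EV over normoxic-EV (horizontal axis), from edgeR with its 95% interval, filled where the gene was called and open where it was not. Cd40 at -1.12 and Cd274 at -1.10 lie lowest, Sirpa, Cd86 and Cd47 lie between -0.61 and -0.55, and Vsir at 0.57 is the called gene above 0.

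Ligand and receptor of the CD47 and SIRPA pair were both lower in hypoxic-EV. Sirpa (ENSMUSG00000037902, chromosome 2, 129434755 to 129474148) was the most abundant of the 10 genes, at 946, 934 and 895 CPM in normoxic-EV and 585, 597 and 640.1 CPM in hypoxic-EV. All hypoxic-EV values lay below all normoxic-EV values. The level was 1.52-fold lower (edgeR log2 fold change -0.61, SE 0.0478, adjusted p = 1.64e-09). Sirpa belongs to a family with similar genes, whose members in the lists had low counts: Sirpb1a stood at 0.734 ± 0.0595 and 1.60 ± 0.0578 CPM, and Sirpb1c had 82 counts in all.

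Cd47 (ENSMUSG00000055447, chromosome 16, 49620896 to 49735373) had 183, 178 and 182 CPM in normoxic-EV and 119.8, 126 and 124 CPM in hypoxic-EV. Libraries of a group lay within a few CPM of each other and the groups did not overlap. The level was 1.47-fold lower (edgeR log2 fold change -0.55, SE 0.0459, adjusted p = 3.45e-09). The antisense gene ENSMUSG00000120198, which overlaps Cd47, had 0.626% of the total count of Cd47.

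Cd200r1, the gene of the inhibitory receptor for CD200 (ENSMUSG00000022667, chromosome 16, 44586099 to 44615341), had 18.8, 18.6 and 20.5 CPM in normoxic-EV and 17.6, 22.1 and 17.4 CPM in hypoxic-EV. The groups overlapped, and hypoxic-EV replicate 2 was the highest library. The log2 fold change was -0.03 (95% interval -0.22 to 0.17, edgeR adjusted p = 0.848). The value was above 0 when normoxic-EV replicate 3, hypoxic-EV replicate 1 or hypoxic-EV replicate 3 was left out (highest 0.0429). The related gene Cd200r4, an activating receptor of the same cluster that was named after its values were seen, went from 36.9 ± 3.45 to 19.3 ± 1.66 CPM (edgeR log2 fold change -0.93, adjusted p = 1.06e-08), and reads of the cluster's similar genes may have been divided between them.

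Levels of different genes were compared per length, with the deposited FPKM values (counts scaled by gene length and library total). Sirpa led in both groups at 188 ± 5.16 FPKM in normoxic-EV and 123 ± 5.05 FPKM in hypoxic-EV (SD, n = 3), which was 62.1% and 60.8% of the summed FPKM of the 10 genes. In normoxic-EV it was followed by Cd274 (29.2 ± 3.28 FPKM), Cd47 (28.8 ± 0.346), Cd86 (16.7 ± 0.601), Cd40 (14.3 ± 0.356), Vsir (8.98 ± 0.809), Cd80 (5.94 ± 0.802), Cd200r1 (5.76 ± 0.311), Icosl (4.30 ± 0.255) and Pdcd1lg2 (0.927 ± 0.212). In that order the libraries of Cd274 and Cd47 overlapped, as did those of Cd80 and Cd200r1. In hypoxic-EV Cd47 came second (19.6 ± 0.296 FPKM), ahead of Cd274 (13.6 ± 0.4995) and Vsir (13.4 ± 0.642), whose libraries overlapped. Vsir had moved past Cd86 (11.2 ± 0.228) and Cd40 (6.57 ± 0.515). The libraries of Cd40 overlapped those of Cd200r1, and those of Cd200r1 overlapped those of Cd80. The summed FPKM of the 10 genes was 305, 309 and 295 in normoxic-EV and 201, 199.5 and 208 in hypoxic-EV, and without Sirpa it was 113 to 119 and 78.9 to 80.5.

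**Figure D3:**
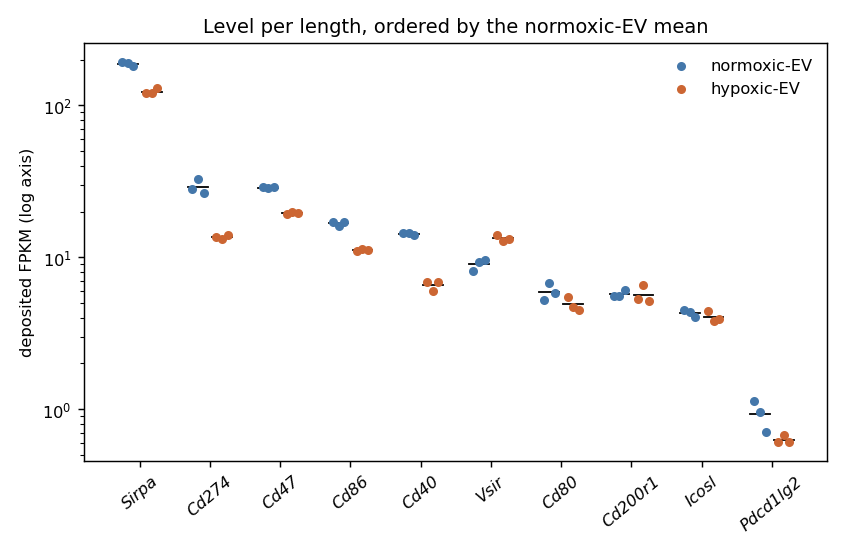
Deposited FPKM (vertical log axis) of the 10 genes in each normoxic-EV library (blue) and hypoxic-EV library (orange), ordered by the normoxic-EV mean, with each group's mean as a line. Sirpa lies above all others in both groups, Pdcd1lg2 below all others, and Vsir is the gene whose orange points lie above the blue ones, moving it level with Cd274 in hypoxic-EV.

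Ratios within a library were compared for 3 pairs that share a receptor or bind each other, as log2 of FPKM plus 0.1. The FPKM of Cd274 was 25.0, 34.5 and 38.0 times that of Pdcd1lg2 in normoxic-EV and 22.2, 19.6 and 23.2 times in hypoxic-EV. All hypoxic-EV ratios were lower, and the mean log2 ratio went from 4.85 ± 0.286 to 4.23 ± 0.116 (SD, n = 3, difference -0.62, two-sided exact permutation p = 0.1, no lower p being possible with 3 libraries per group, and 0.3 adjusted over the 3 pairs). The difference was -0.81 with 1 FPKM added and -0.57 with 0.01 FPKM added. Pdcd1lg2 had 20 to 37 counts in a library, and its reads cannot be assigned with certainty, which limits this ratio. The log2 ratio of Cd80 to Cd86 went from -1.48 ± 0.238 to -1.18 ± 0.176, with overlapping groups (difference 0.30, exact permutation p = 0.3, adjusted 0.3). That of Cd47 to Sirpa was -2.71 ± 0.0467 and -2.65 ± 0.0639, with overlapping groups (difference 0.06, exact permutation p = 0.2, adjusted 0.3). Without each library in turn the differences ran from -0.79 to -0.52 for Cd274 to Pdcd1lg2, from 0.1995 (without normoxic-EV replicate 1) to 0.43 for Cd80 to Cd86, and for Cd47 to Sirpa from 0.03 (without hypoxic-EV replicate 2) and 0.04 (without normoxic-EV replicate 2) to 0.09 (without hypoxic-EV replicate 3). A test of this size could not pass 0.05 for any pair.

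**Figure D4:**
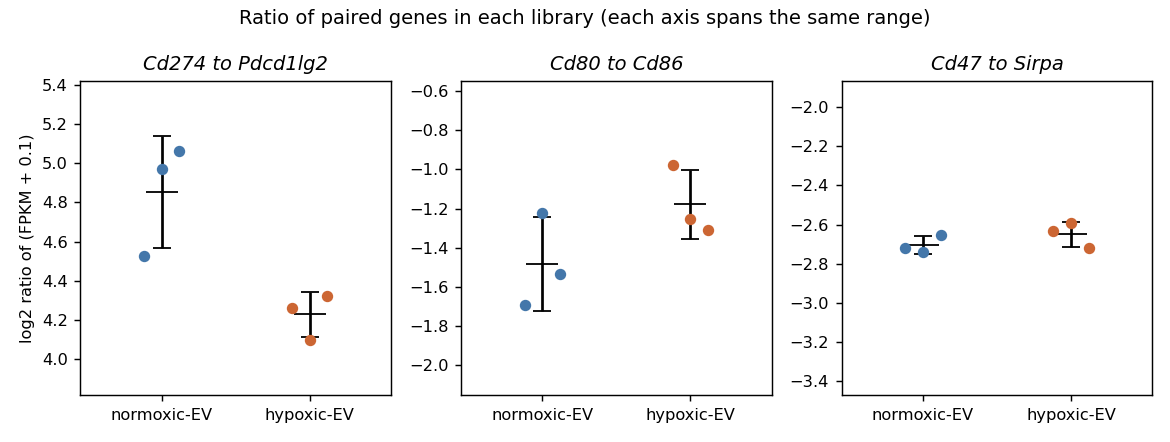
Log2 ratio of FPKM plus 0.1 (vertical axes, spanning the same range) for 3 pairs of genes in each normoxic-EV library (blue) and hypoxic-EV library (orange), with mean and SD. The ratio of Cd274 to Pdcd1lg2 separates the groups, at 4.53 to 5.06 against 4.10 to 4.33, and the other pairs overlap.

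Genes around these molecules were described in 6 lists that leave the 10 genes out. Of 108 listed genes, 91 were tested, 21 were higher and 31 lower, with a median log2 fold change of -0.04. That was 57.1% called, 23.1% higher and 34.1% lower, against 44.2%, 22.7% and 21.5% of all genes tested. The lists, too, were chosen with earlier results of these data known, which limits this comparison. In the order of the lists below, 33.3%, 81.25%, 58.3%, 60%, 47.1% and 57.9% of the tested genes were called. Of 22 other co-signalling genes of the B7, TNF and related families 12 were tested, 2 were higher, 2 lower and 8 not called. Cd276, the gene of the B7 family molecule B7-H3, fell from 53.0 ± 2.73 to 38.5 ± 1.67 CPM (SD, n = 3, edgeR adjusted p = 3.98e-06), and Cd48, a SLAM family ligand gene, had a log2 fold change of -0.31. Icam1, encoding the integrin ligand that holds T cells to presenting cells, had 0.28, and Hmgb1, encoding a nuclear protein that also binds the checkpoint receptor TIM-3, had 0.45, though Uspl1 overlaps it in antisense, with 38.0% of its total count. The count of lower genes was 1 with DESeq2 and without normoxic-EV replicate 1 or 2 or hypoxic-EV replicate 1. Of the 10 genes below the filter Cd70 had 0 counts in every library, and Tnfsf4, encoding OX40L, had at most 10 in a library.

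The list of other inhibitory receptors of myeloid cells, which also holds activating relatives, moved in both directions: 6 of 16 tested genes were higher and 7 lower, with a median log2 fold change of 0.14 that was -0.08 without hypoxic-EV replicate 2 and 0.06 without normoxic-EV replicate 2. Siglec1, which encodes the sialic acid receptor CD169, rose from 59.6 ± 0.694 to 123 ± 9.06 CPM and Cd33, another sialic acid receptor gene, from 62.6 ± 4.07 to 121 ± 5.61 CPM (SD, n = 3, edgeR adjusted p = 4.47e-12 and 1.92e-11). Clec4a2, a C-type lectin receptor gene, fell from 30.0 ± 2.29 to 6.66 ± 0.664 CPM, and Slamf7, a SLAM family receptor gene, from 4.77 ± 0.995 to 0.321 ± 0.0292 CPM (edgeR adjusted p = 3.67e-13 and 2.3e-10). Slamf7 had 72, 70 and 133 counts in normoxic-EV but 6, 6 and 7 in hypoxic-EV. It passed the filter through its normoxic-EV counts, and its hypoxic-EV level lies near the floor.

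Of 12 genes listed around the signalling of SIRPA, CD200R1 and their relatives, 4 were higher, 3 lower and 5 not called (median log2 fold change 0.04). The median was 0.01 without hypoxic-EV replicate 3 and 0.08 without hypoxic-EV replicate 2. The count of higher genes was 5 with limma and without hypoxic-EV replicate 2. That of lower genes was 2 without normoxic-EV replicate 1, hypoxic-EV replicate 1 or hypoxic-EV replicate 3. The lipid phosphatase gene Inpp5d, encoding SHIP1, and the kinase genes Fes and Ptk2b had log2 fold changes of 0.47, 0.73 and 0.41, and Rasa1, which encodes a GTPase-activating protein of Ras, had -0.34, with Ccnh overlapping it in antisense (29.8% of its total count). The genes of the phosphatases that SIRPA recruits, picked with their values in view, were not called: Ptpn6, encoding SHP-1, had 0.11 and Ptpn11, encoding SHP-2, 0.07.

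Of 15 genes of CD40 signalling, 6 were lower, 3 higher and 6 not called (median log2 fold change -0.17), and the count of higher genes was 1 without normoxic-EV replicate 2. The median was -0.09 without normoxic-EV replicate 2 or hypoxic-EV replicate 2, and -0.25 without hypoxic-EV replicate 1. The adaptor gene Traf1 fell from 64.4 ± 3.87 to 17.5 ± 1.49 CPM (SD, n = 3, 3.66-fold, edgeR adjusted p = 4.96e-14). Nfkb2, encoding the NF-kB subunit of the non-canonical arm, fell from 85.5 ± 2.44 to 51.3 ± 3.97 CPM, with Psd overlapping it in antisense (26.8% of its total count). Tank and Birc3, genes of a TRAF-binding protein and of an inhibitor of apoptosis, had log2 fold changes of -0.36 and -0.35.

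Of 17 tested genes whose products are known to induce Cd274 transcription, 7 were lower, 1 higher and 9 not called (median -0.13), and the count of higher genes was 0 without normoxic-EV replicate 2 or hypoxic-EV replicate 1. The median was -0.09 without normoxic-EV replicate 2 and -0.08 without hypoxic-EV replicate 3. Jak2, the kinase gene of the interferon gamma receptor, fell from 243 ± 7.83 to 145 ± 8.63 CPM (SD, n = 3, edgeR adjusted p = 1.6e-10). The transcription factor genes Myc, Nfkb1 and Rela had log2 fold changes of -0.82, -0.32 and -0.25. Irf1, an interferon-induced transcription factor gene picked with its value in view, was not called, at -0.04.

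Of 19 genes whose products modify, stabilise or degrade these surface proteins, 6 were lower, 5 higher and 8 not called (median -0.06), and the count of higher genes was 3 without normoxic-EV replicate 1 or 2 or hypoxic-EV replicate 2 and with the replicate number as a block. Qpct, a glutaminyl cyclase gene, fell from 66.2 ± 0.859 to 27.6 ± 1.27 CPM (SD, n = 3, edgeR adjusted p = 8.7e-13). Its paralogue Qpctl, whose product forms the pyroglutamate of CD47 that SIRPA binds, was not called (log2 fold change -0.20, edgeR adjusted p = 0.0921) and was named after its values were seen. Cmtm6, whose product keeps PD-L1 at the cell surface, Gsk3b, whose kinase marks PD-L1 for degradation, and Marchf8, encoding a ubiquitin ligase of CD86, had log2 fold changes of -0.39, -0.43 and -0.34.

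**Figure D5:**
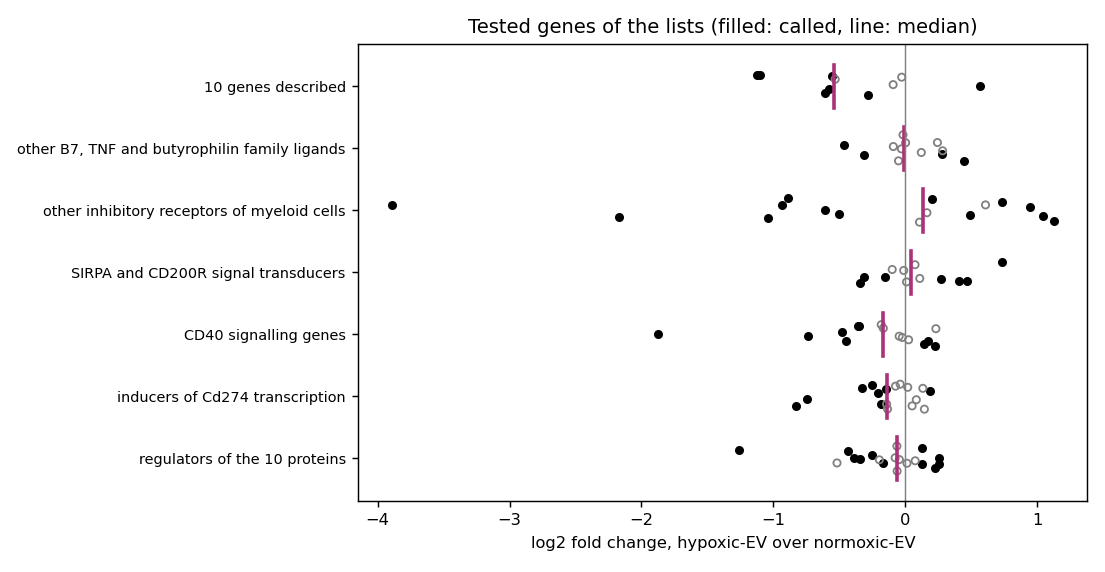
Log2 fold change, hypoxic-EV over normoxic-EV (horizontal axis), of the 10 genes (top row) and of the tested genes of the 6 related lists, filled where called and open where not, with the list's median as a line. The median of the 10 genes is -0.54, and the list medians lie between -0.17 and 0.14.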

How the data were processed

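RNA of 6 samples of RAW 264.7 cells, 3 per group, was measured. Per the labels' protocols, poly(A) RNA was made into TruSeq libraries and read in pairs on an Illumina HiSeq. Per the submitters' processing notes, HISAT2, featureCounts, DESeq2 and GRCm39 were used; their versions, the annotation, the strand setting and the handling of multi-mapping reads were not given in the sources used here. Raw gene counts, whole numbers, were deposited together with FPKM values by the authors; the FPKM for all 26398 genes with counts equalled the count per library total and a fixed length (relative tolerance 1e-06). The authors also deposited a table of log2 fold changes and adjusted p-values.

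The test on counts used edgeR 4.0.16 (R 4.3.3) after filterByExpr (at least 10 counts, at least 15 in total) and TMM scaling (quasi-likelihood F-test, two-sided, Benjamini-Hochberg adjustment). CPM values are TMM-scaled, except summed marker levels, which are per library total; values after ± are SD; an SE is the absolute log2 fold change over the root of F. Replicates of a group differed by more than counting noise (chi-square per degree of freedom 2.72 to 5.84, genes with 20 or more counts per pair). Alternatives were RLE scaling, no filter, DESeq2 1.42.0, limma 3.58.1 on log2 FPKM plus 0.1, other pseudocounts, a replicate block and leaving out each library. Ratios were tested by exact permutation (SciPy 1.17.1). Promoter coordinates are those of GRCm38.p6 and gene coordinates those of the deposited GRCm39 tables.

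Named were the 10 genes, up to 4 called genes of each list by lowest p, and genes beside or overlapping the 10; any other, including each cell type marker and T cell receptor gene given, Sirpb1a, Sirpb1c, Cd70, Tnfsf4 and the genes overlapping listed genes, was chosen after its values were seen. The 10 genes and the lists were chosen with earlier results of these data known.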

Additional observations from a re-analysis of the deposited data

How the results depend on the processing

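Of the 10 genes, 7 kept their direction and their side of the threshold under all 11 alternatives (Cd274, Cd86, Cd40, Icosl, Vsir, Sirpa and Cd47). Over those alternatives the log2 fold change ran from -1.16 to -1.01 for Cd274, from -1.16 to -1.06 for Cd40, from -0.64 to -0.58 for Sirpa and from 0.51 to 0.63 for Vsir. The calls of Cd80 and Pdcd1lg2 changed as given with their values, with adjusted p from 0.00906 to 0.154 and from 0.0416 to 0.333. Cd200r1, not called under any alternative, had log2 fold changes from -0.145 to 0.0429 without each library in turn, above 0 without normoxic-EV replicate 3, hypoxic-EV replicate 1 or hypoxic-EV replicate 3; the cause was not tested. The count of lower genes among the 10 was 5 to 7 without each library in turn, 6 with DESeq2 (Cd80 barely) and 5 with limma. In each, 1 was higher. Of all genes, 2299 of 26398 were lower and 2588 higher with DESeq2, and 2590 of 13303 lower and 2700 higher with limma. Without each library in turn, 2390 to 2764 of 13432 to 13762 genes were lower and 2547 to 3014 higher. Same-numbered libraries did not deviate together (r from -0.035 to -0.019 over genes), and no library correlated best with its own number. With the replicate number as a block, 6 of the 10 genes were lower and 1 higher, and 31 genes of the related lists were lower and 18 higher. Of all 13303 genes tested, 2752 were lower and 2910 higher with that block. The differences of the log2 ratios were then -0.62, 0.30 and 0.06. Depth limits Pdcd1lg2 most. The median log2 fold change of all genes moved by less than 0.1 under every scaling tried.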

Other observations

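Genes of the T cell receptors for these ligands were also read in the macrophage libraries. Pdcd1, encoding PD-1, the receptor of PD-L1 and PD-L2, had 6.46, 5.78 and 6.67 CPM in normoxic-EV and 7.79, 7.20 and 9.04 CPM in hypoxic-EV, without overlap between the groups. Its log2 fold change was 0.35 (SE 0.128, edgeR adjusted p = 0.0329). The call ended with DESeq2 (adjusted p = 0.108) and without normoxic-EV replicate 1 (0.0565), normoxic-EV replicate 2 (0.124) or hypoxic-EV replicate 3 (0.182). Cd28, encoding the receptor of CD80 and CD86, stood at 1.27 ± 0.091 and 0.930 ± 0.225 CPM (SD, n = 3; edgeR log2 fold change -0.46, adjusted p = 0.187). Ctla4 had at most 1 count and Icos at most 5 in a library. Of the other T cell markers, Cd3e and Cd8a had 0 counts in all 6 libraries, Cd3g at most 1, Cd3d at most 2 and Cd4 at most 6 in a library. Lck, a kinase gene of T cell receptor signalling, stood at 20.6 ± 0.892 and 15.6 ± 1.42 CPM (log2 fold change -0.39, edgeR adjusted p = 0.000896).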
